A study of Mus musculus with 22 samples.

Results

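The 39 genes described here are immediate early and activity-regulated genes, whose transcripts rise soon after a cell is stimulated. They were chosen by symbol from a list set with earlier results of these data known. Each symbol was matched to 1 Ensembl gene ID in the deposited gene tables. All 39 were among the 16974 genes tested, out of 38924 gene IDs in the tables. The list holds 6 subunits of the transcription factor AP-1, 3 EGR zinc fingers, 3 NR4A nuclear receptors, 4 KLF zinc fingers and 3 other regulators of transcription. It also holds 5 genes for synaptic or secreted proteins, 5 brakes on MAP kinase signalling, 2 feedback kinases or pseudokinases, 4 genes of RNA decay and growth arrest, 3 IER genes and the endothelial gene Apold1.

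Whole spinal cord of mice aged 7 months was measured by polyA RNA sequencing. The mice carried no copy (WT, 6 libraries), 1 copy (E196K/+, here HET, 6 libraries) or 2 copies (E196K/E196K, here HOM, 10 libraries) of Yars with the E196K change. All 3 groups were on the B6N;B6J background, and no treatment is given in the labels. Yars encodes the enzyme that charges tyrosine tRNA, and the E196K change is one of those found in dominant intermediate Charcot-Marie-Tooth neuropathy. The labels do not say whether each library came from a separate animal, and they give neither sex nor time of dissection, so p-values measure only the spread between these libraries.

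Immediate early genes are held ready for transcription and are switched on by kinases that phosphorylate factors already present in the cell, such as CREB and SRF, without any need for new protein. Their first products are largely transcription factors, among them FOS, JUN and EGR proteins, which then act on later genes, while others such as the DUSP phosphatases and Sprouty proteins dampen the signal. In the spinal cord, Fos is widely used as a marker of neurons excited by sensory or noxious input, and the same genes also respond in glia and vessels to handling of the animal, stress and dissection.

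The libraries held between 24.45 M and 42.81 M counts each, and Yars lay between 109 and 129 CPM (expected counts per M, scaled by TMM). The library titles begin with 1 of 3 numbers that the labels do not explain. Prefix 39992 covers WT 1 and HOM 1 to 5, prefix 40411 covers WT 2, WT 3, HET 1 and HOM 6 to 8, and prefix 40412 covers WT 4 to 6, HET 2 to 6, HOM 9 and HOM 10. The genotypes are thus spread unevenly over the prefixes, with 5 of 6 HET libraries in 40412. Markers of neurons, astrocytes and oligodendrocytes were abundant in every library. HOM 3 stood apart, with summed Schwann cell markers at 2720 CPM against at most 67.1 CPM in the WT and 66.9 CPM in the HET libraries. Its fibroblast markers summed to 494 CPM and its blood markers to 1610 CPM, both the highest of all libraries. In bulk tissue, fewer cells of a type and less RNA per cell cannot be told apart.

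Promoter windows of 250 bases before to 50 bases after the start of a transcript were found in RefSeq (GRCm38.p6) for 28 of the 39 genes. Egr1, Egr3, Arc, Nptx2, Klf10, Sik1, Trib1, Dusp4, Spry4, Vgf and Ier2 were not among them. The core TGACG of the cyclic AMP response element, on either strand, where CREB and its relatives bind, was present in 18 of the 28 genes and in 20 of their 38 windows (52.6%), against 20.8% of all 32851 windows. These starts need not be the 5′ end of the gene in the GENCODE annotation: in 19 of the 38 windows they lay more than 250 bases from it, and 9 of the 28 genes had only such windows. The full palindrome TGACGTCA, which contains that core, was found in Btg2, Dusp1 and Maff, and in 1.79% of all windows. The CArG box, the binding site of SRF, was found in Dusp5 and Zfp36 (1.63% of all windows), the AP-1 site TGANTCA in Bdnf (7.81%), the EGR site GCGTGGGCG in Maff (0.612%) and the TATA box TATAAA in 6 genes (13.6%). A match is a description of the letters and not evidence of binding. Bases outside these windows were not searched, so a gene without a match may hold the letters elsewhere.

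The windows of Fos and of Nr4a1, Fosb and Fosl2, whose levels followed Fos most closely among genes with a window, are shown with that of Junb, an AP-1 partner of FOS chosen after the values were seen. Each of these genes has 1 window in the table. The window of Jund ends upstream of the annotated gene and is not shown. Capitals mark TGACG or its reverse complement CGTCA and TATAAA. The windows lie at chr12:85473640-85473939 (+) for Fos, chr15:101266596-101266895 (+) for Nr4a1, chr7:19309996-19310295 (-) for Fosb, chr5:32136222-32136521 (+) for Fosl2 and chr8:84978699-84978998 (-) for Junb.
Fos: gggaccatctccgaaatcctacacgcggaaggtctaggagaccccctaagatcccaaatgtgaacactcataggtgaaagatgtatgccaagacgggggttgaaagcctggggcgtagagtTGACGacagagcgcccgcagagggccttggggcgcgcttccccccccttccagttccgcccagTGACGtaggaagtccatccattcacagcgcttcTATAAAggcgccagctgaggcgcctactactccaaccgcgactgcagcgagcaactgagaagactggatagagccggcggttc
Nr4a1: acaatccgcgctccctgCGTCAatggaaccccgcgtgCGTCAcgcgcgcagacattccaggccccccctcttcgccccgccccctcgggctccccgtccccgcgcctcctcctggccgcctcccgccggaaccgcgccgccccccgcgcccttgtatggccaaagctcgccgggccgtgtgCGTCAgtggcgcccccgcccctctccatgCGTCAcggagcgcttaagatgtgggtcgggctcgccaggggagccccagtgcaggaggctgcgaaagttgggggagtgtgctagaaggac
Fosb: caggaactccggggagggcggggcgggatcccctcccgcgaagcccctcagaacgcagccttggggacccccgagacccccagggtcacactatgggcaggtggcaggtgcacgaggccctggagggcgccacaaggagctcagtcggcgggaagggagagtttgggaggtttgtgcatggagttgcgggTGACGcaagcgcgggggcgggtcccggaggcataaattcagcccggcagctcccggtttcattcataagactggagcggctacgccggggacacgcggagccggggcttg
Fosl2: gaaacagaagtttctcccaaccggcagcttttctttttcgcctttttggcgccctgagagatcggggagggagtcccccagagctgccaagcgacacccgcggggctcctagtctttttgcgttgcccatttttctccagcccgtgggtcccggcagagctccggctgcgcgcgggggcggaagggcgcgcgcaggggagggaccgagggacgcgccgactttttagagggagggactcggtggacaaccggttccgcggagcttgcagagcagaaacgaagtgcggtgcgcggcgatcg
Junb: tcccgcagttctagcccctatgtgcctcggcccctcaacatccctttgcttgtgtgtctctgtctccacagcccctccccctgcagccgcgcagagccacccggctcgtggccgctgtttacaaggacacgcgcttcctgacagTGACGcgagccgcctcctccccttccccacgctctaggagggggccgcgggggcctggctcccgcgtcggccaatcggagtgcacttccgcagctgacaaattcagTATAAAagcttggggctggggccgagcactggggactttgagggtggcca
In the Fos window this core began at -129 and -66 relative to the transcript's start, which is also the annotated 5′ end of Fos, and the TATA box at -33. Nr4a1 held 4 copies, at -233, -213, -69 and -40, Fosb held 1 at -60, and Junb held 1 at -106 with TATAAA at 1. The start used lies 12577 bases inside the annotated gene for Nr4a1 and 671 bases inside it for Fosl2. For Junb it lies at -30 relative to the annotated 5′ end, so upstream of it, and for Fosb at 6. None of the letters searched was present in this Fosl2 window, which says nothing of other starts of the gene.

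On a per-length scale (TPM, mean of 22 libraries), the most abundant of the 39 transcripts was Vgf at 96.0 TPM, which encodes a secreted neuropeptide precursor. Jund followed at 53.1, Jun at 28.3, Gadd45g at 25.3, Per1 at 22.7 and Egr1 at 22.5 TPM. Fos itself lay at 16.8 TPM, close to the synaptic gene Arc at 17 TPM. Egr4 was the least abundant at 0.821 TPM, resting on 9 to 51 counts per library, and Fosb and Dusp5 lay at 1.70 and 1.73 TPM.

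The genes differed widely in how much they varied between libraries. The coefficient of variation of CPM over all 22 libraries was 49.2% for Nr4a3, 46.9% for Nr4a2, 46.3% for Egr4, 41.6% for Fos, 40.8% for Apold1 and 40.2% for Fosb. At the other end stood Gadd45b at 6.38%, Jun at 7.46% and Ier3 at 8.97%. Within the AP-1 family, Fos varied 4.18-fold from its lowest to its highest library and its dimer partner Jun varied 1.28-fold. The large value of Nr4a2 came with HOM 3, at 8.91 CPM against at most 3.59 CPM in the HET and 2.92 CPM in the WT libraries.

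**Figure D1:**
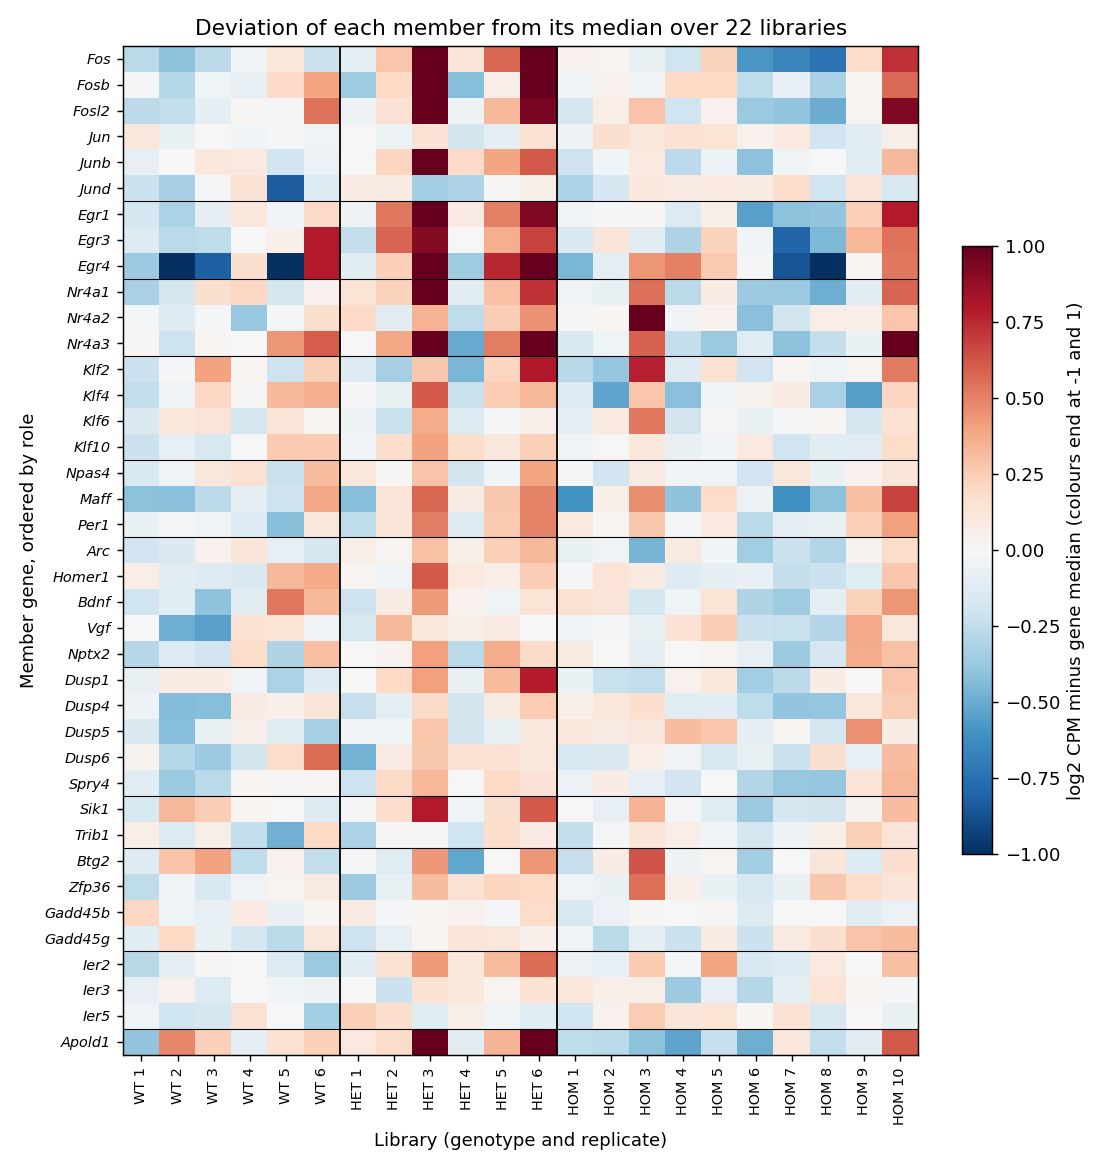
Each row is 1 of the 39 genes, ordered by role, and each column 1 of the 22 libraries; colour gives log2 CPM minus the gene's median over all libraries. HET 3, HET 6 and HOM 10 are red over most rows (median deviations 0.41, 0.33 and 0.29) and HOM 6 to 8 are pale to dark blue for many genes (-0.19, -0.16 and -0.17).

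The level of the list varied library by library. HET 3, HET 6 and HOM 10 had high levels across the list, and their median log2 deviation from the gene medians was 0.41, 0.33 and 0.29. HET 6 and HOM 10 held the fewest counts of all libraries, at 24.45 M and 26.43 M, and HET 3 held 31.25 M. A relation to the number of counts was not tested. HET 3 was the highest of all libraries for 15 of the 39 genes (38.5%), against 6.80% of all genes tested, and HET 6 for 8 (20.5%, against 4.94%). HOM 10 lay above the gene's own median for 35 of the 39 genes. The lowest were HOM 6, HOM 7 and HOM 8, at -0.19, -0.16 and -0.17. HOM 3 was the highest library for 5 genes, namely Nr4a2, Klf6, Btg2, Zfp36 and Ier5, but 17.1% of all genes tested also peaked there.

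Fos, the founding AP-1 subunit, ranged in WT from 10.7 CPM over a median of 12.1 to 15.4 CPM. In HET it ranged from 13.4 over 19.3 to 35.6 CPM, and in HOM from 8.52 over 14.0 to 23.7 CPM. The highest 3 libraries were HET 3 at 35.6, HET 6 at 29.3 and HOM 10 at 23.7 CPM, and the 3 genotypes overlapped. Mean levels were 12.7 ± 1.69 CPM in WT (SD, n = 6), 22.1 ± 8.66 in HET (n = 6) and 13.9 ± 4.51 in HOM (n = 10).

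Fosb, its close relative, reached 8.26 CPM in HET 3, with medians of 2.96 CPM in WT, 3.32 in HET and 3.00 in HOM. Fosl2, another FOS subunit, ran from 10.2 to 17.8 CPM in WT, from 11.8 to 26.3 in HET and from 8.64 to 23.2 in HOM. Junb, a JUN subunit that is itself an immediate early gene, ran from 9.06 over 10.2 to 11.2 CPM in WT, from 10.4 over 12.9 to 20.8 in HET and from 7.82 over 10.1 to 13.0 in HOM. HET 3 and HET 6 were the highest for Junb, and the groups overlapped at their lower ends. Jun lay within 41.2 to 52.8 CPM in all libraries, and Jund, the constitutive JUN subunit, ran from 47.4 CPM in WT 5 to 95.5 CPM in HOM 7.

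Egr1, a zinc finger factor induced by MAP kinase signalling, ranged from 27.7 over 33.1 to 39.3 CPM in WT, from 33.3 over 49.3 to 80.0 in HET and from 23.7 over 34.0 to 59.7 in HOM. Its 3 highest libraries were the same as for Fos. Egr3 stayed between 1.13 and 3.72 CPM. Of the NR4A receptors, which act without a known ligand, Nr4a1 ran from 8.66 to 12.5 CPM in WT, from 10.1 to 23.8 in HET and from 7.75 to 16.2 in HOM. Nr4a3 reached 18.7 CPM in HET 3 and 12 CPM in its highest HOM library. Npas4, a factor that responds to calcium entry in neurons, lay between 3.91 and 5.99 CPM in all 22 libraries.

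Arc, which encodes a postsynaptic protein that controls AMPA receptor traffic, had WT levels from 24.3 over 25.7 to 30.3 CPM, HET levels from 28.4 over 30.9 to 34.8 and HOM levels from 20.1 over 26.8 to 31.5. The HET libraries were mostly at the upper end, and all 3 ranges overlapped. Dusp1, a phosphatase that switches off MAP kinases in the nucleus, ran from 9.90 over 11.9 to 13.0 CPM in WT, from 11.8 over 14.8 to 21.3 in HET and from 9.68 over 12 to 15 in HOM. Dusp5, which acts on ERK, ran from 1.63 over 1.99 to 2.27 CPM in WT, 1.93 over 2.14 to 2.65 in HET and 1.95 over 2.35 to 3.00 in HOM. Ier2, an early gene of the IER family, ran from 2.75 over 3.28 to 3.58 CPM in WT, 3.28 over 4.19 to 5.22 in HET and 3.18 over 3.53 to 4.66 in HOM. Apold1, an early response gene of endothelial cells, ran from 2.90 over 4.36 to 5.34 CPM in WT, 3.54 over 4.57 to 9.06 in HET and 2.64 over 3.20 to 5.82 in HOM. Its peaks were again HET 3 and HET 6.

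**Figure D2:**
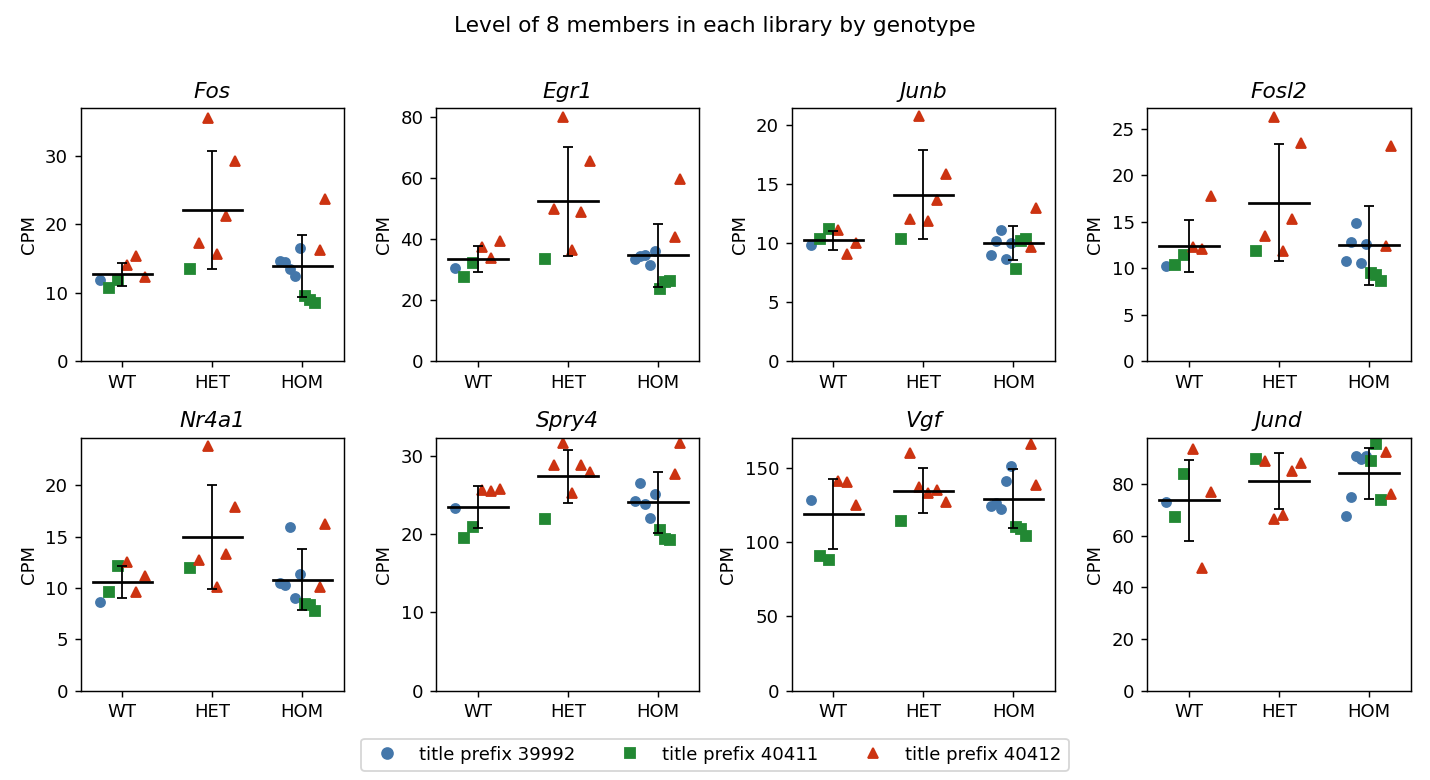
CPM of 8 genes in each library by genotype; point shape and colour give the title prefix, the line is the mean and the bar 1 SD. For Fos the HET libraries spread from 13.4 to 35.6 CPM while WT stays between 10.7 and 15.4, and Vgf and Spry4 separate by prefix 40411 and 40412 within each genotype.

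The comparison of HET with WT asks whether 1 copy of the change goes with another level of these genes. Earlier results of these data already had this list higher in HET. The counts for the list are therefore a description beside all genes and not a test of the list. None of the 39 genes passed edgeR's quasi-likelihood test at a Benjamini-Hochberg adjusted p below 0.05, and 0.0% of the 16974 genes tested did. DESeq2 and limma-trend also called 0 genes, while 578 genes (3.41%) had an unadjusted p below 0.05. Of the 39, 38 had a positive log2 fold change (51.9% of all genes did), with a median of 0.19 against 0.003 over all genes, and Klf6 was the exception at -0.01. At an unadjusted p below 0.05, 9 were higher, namely Fos, Junb, Egr1, Egr4, Nr4a1, Per1, Arc, Dusp1 and Ier2, which is 23.1% against 1.69% of all genes, and 0 were lower (1.71%). Counted in either direction, the 9 became 6 without HET 3, when 700 of 17089 genes had such a p, and 17 without HET 1, with 649 of 17031 genes. In no gene of the list did the HET and WT libraries separate fully (0.0471% of all genes had every HET library above every WT library, and 0.0943% every one below).

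The log2 difference of HET from WT was 0.79 for Fos (SE 0.248), 0.64 for Egr1 (SE 0.216), 0.46 for Junb (SE 0.130), 0.39 for Ier2 (SE 0.114), 0.36 for Dusp1 (SE 0.121) and 0.24 for Arc (SE 0.0912). Each of these had an adjusted p of 1 in edgeR's quasi-likelihood test. Npas4 differed by 0.07 (SE 0.0988), Jun by 0.00 (SE 0.0604) and Gadd45b by 0.03 (SE 0.0578), all with an adjusted p of 1. Without HET 3 and HET 6, an omission chosen after the values were seen, 24 of the 39 genes were above WT, against 48.7% of all genes. Fos then stood at 0.41 (SE 0.228) and Apold1 went from 0.47 to 0.00. Among the 40412 libraries alone, where 5 HET libraries faced 3 WT libraries, the difference was 0.77 for Fos (SE 0.293), 0.60 for Egr1 (SE 0.251), 0.56 for Junb (SE 0.190) and 0.47 for Ier2 (SE 0.137), again with an adjusted p of 1 in edgeR's test.

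With 2 copies of the change, no gene of the list was called against WT. In HOM against WT, 0 of the 39 genes passed edgeR's quasi-likelihood test, against 0.0943% of all genes (16 genes). At an unadjusted p below 0.05, 1004 genes stood out and Dusp5 alone among the 39 did (5.91% of all genes). In none of the 39 did the HOM and WT libraries separate fully (0.118% of all genes with HOM above WT, 0.00589% below). Log2 fold changes were positive for 26 of the 39 genes (53.7% of all genes), with a median of 0.02 against 0.007. Dusp5 had the smallest p, with a log2 difference of 0.30 (SE 0.101, adjusted p = 0.646 in edgeR's test). Ier2 followed at 0.21 (SE 0.103), Jund at 0.19 (SE 0.114), Klf4 at -0.23 (SE 0.137) and Ier5 at 0.12 (SE 0.0745), each with an adjusted p of 0.815 in the same test. Fos differed by 0.12 (SE 0.225), Egr1 by 0.05 (SE 0.195), Junb by -0.04 (SE 0.117), Arc by -0.04 (SE 0.0818) and Npas4 by -0.05 (SE 0.0883). Among the 40412 libraries alone, with 2 HOM against 3 WT libraries, Fos was higher in HOM by 0.51 (SE 0.357) and Egr1 by 0.44 (SE 0.306), both with an adjusted p of 0.967 in edgeR's test. Mean Fos levels there were 19.9 CPM in HOM and 13.9 CPM in WT, while in 40411 they were 9.01 CPM in HOM and 11.3 CPM in WT. The value of Nr4a2 over all libraries, 0.36 (SE 0.249), was 0.05 (SE 0.109) without HOM 3.

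**Figure D3:**
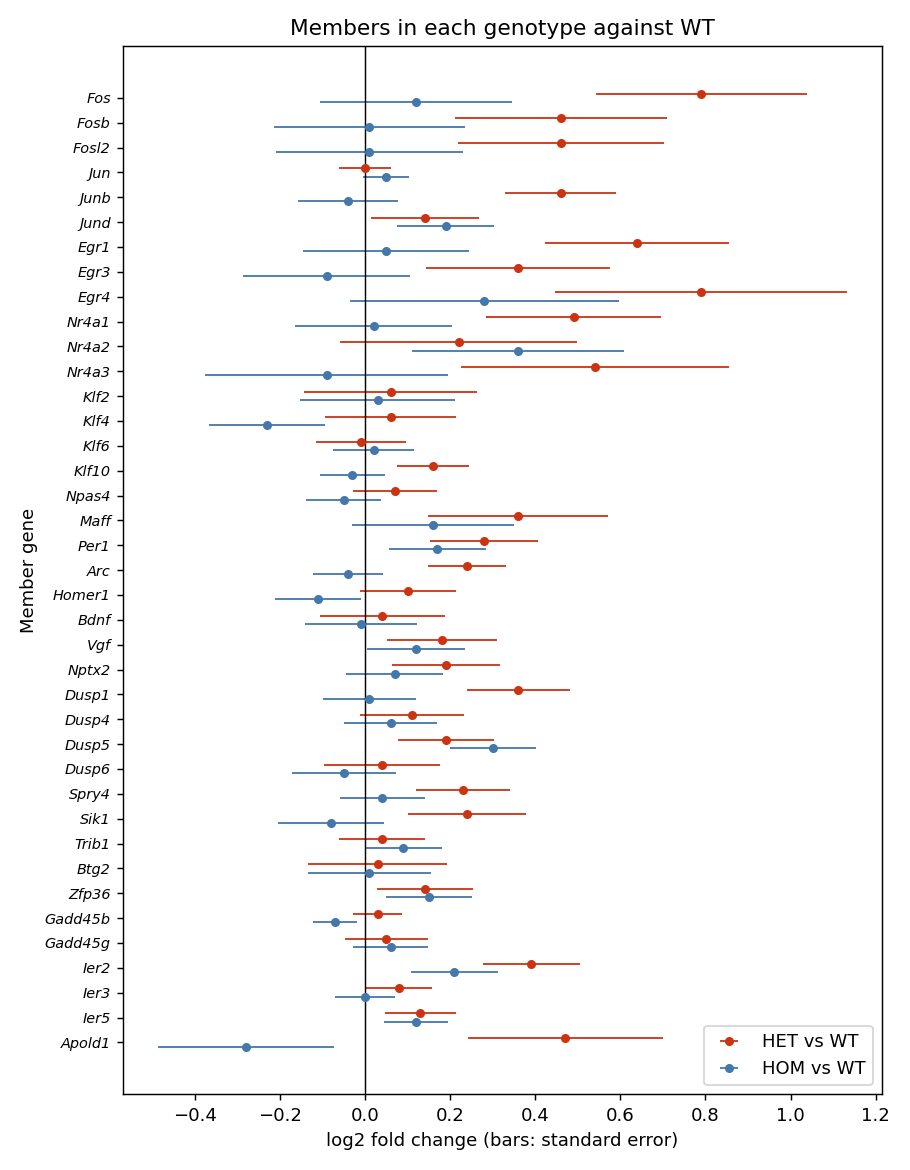
Log2 fold change of each of the 39 genes in HET (red) and HOM (blue) against WT, with 1 standard error. Of the 39 genes, 38 lie to the right of 0 in HET and 26 in HOM; both comparisons share the 6 WT libraries, and no gene passed the test in either.

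HOM against HET tests whether the effects of 1 and 2 copies differ. By edgeR's quasi-likelihood test 0 of the 39 genes passed, against 0.106% of all genes (18 genes), with 1493 genes (8.8%) at an unadjusted p below 0.05. In none of the 39 did the groups separate fully (0.124% of all genes with HOM above HET, 0.106% below). Of the 39, 31 were lower in HOM (47.0% of all genes were), the median was -0.12 against 0.005, and 15 were lower at an unadjusted p below 0.05 (38.5%, against 4.24% of all genes). Counted in either direction, there were 6 without HET 3 (1137 of 17089 genes), 17 without HET 1 (1501 of 17031 genes) and 5 with prefix in the fit (698 of 16974 genes), namely Fos, Junb, Arc, Dusp1 and Gadd45b. The 15 were Fos, Fosb, Fosl2, Junb, Egr1, Egr3, Nr4a1, Nr4a3, Klf4, Klf10, Arc, Homer1, Dusp1, Sik1 and Apold1. Junb came nearest to the threshold, at -0.50 (SE 0.115, adjusted p = 0.0905), followed by Apold1 at -0.74 (SE 0.203, adjusted p = 0.223) and Arc at -0.27 (SE 0.0811, adjusted p = 0.298) in edgeR's test. Fos stood at -0.67 (SE 0.217) and Egr1 at -0.59 (SE 0.190), both with an adjusted p of 0.340, and Dusp1 at -0.35 (SE 0.107, adjusted p = 0.310 in edgeR's test).

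DESeq2 called Junb (log2 difference -0.50, SE 0.118, adjusted p = 0.0100) and Apold1 (-0.75, SE 0.203, adjusted p = 0.0499), among 76 of all genes against 18 in edgeR's test. Junb also passed edgeR's test without HET 1, with an adjusted p of 0.0404, among 18 of 17031 genes. In the other direction, Junb stood at -0.27 (SE 0.0930) without HET 3 and HET 6, with an adjusted p of 0.857 in edgeR's test. Of the 39 genes, 15 rather than 8 were then higher in HOM, against 53.9% of all genes. Fos stood at -0.29 (SE 0.208) and Apold1 at -0.28 (SE 0.169) without those libraries. Among the 40412 libraries alone, with only HOM 9 and HOM 10 against 5 HET libraries, the difference was -0.26 for Fos (SE 0.327) and -0.39 for Junb (SE 0.217).

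Across the 22 libraries the genes moved together with Fos. Pearson's r of log2 CPM with Fos had a median of 0.66 over the other 38 genes, against -0.01 over all other genes tested. It was positive for 36 of the 38, against 49.1% of all other genes. It was at least 0.7 for 16 of the 38, against 0.738% of all other genes. In a two-sided permutation test with 100000 resamples and Benjamini-Hochberg adjustment over the 38 relations, 22 genes passed at 0.05 by r, 22 by Spearman's rho and 21 by both. The permutations were run for these 38 genes only, so the share of all other genes that would pass is not known. Egr1 was closest, with r = 0.96 and rho = 0.91 (permutation p = 1e-05 for each, the smallest these permutations can give, adjusted 7.6e-05 and 9.5e-05). Spry4, which dampens receptor tyrosine kinase signalling, followed with r = 0.88 and rho = 0.90, Fosl2 with 0.88 and 0.82, Nr4a1 with 0.86 and 0.76, and Fosb with 0.81 and 0.64. Jund (r = -0.12), Ier5 (-0.07), Trib1 (0.17), Gadd45b (0.19) and Jun (0.27) followed Fos little or not at all.

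**Figure D4:**
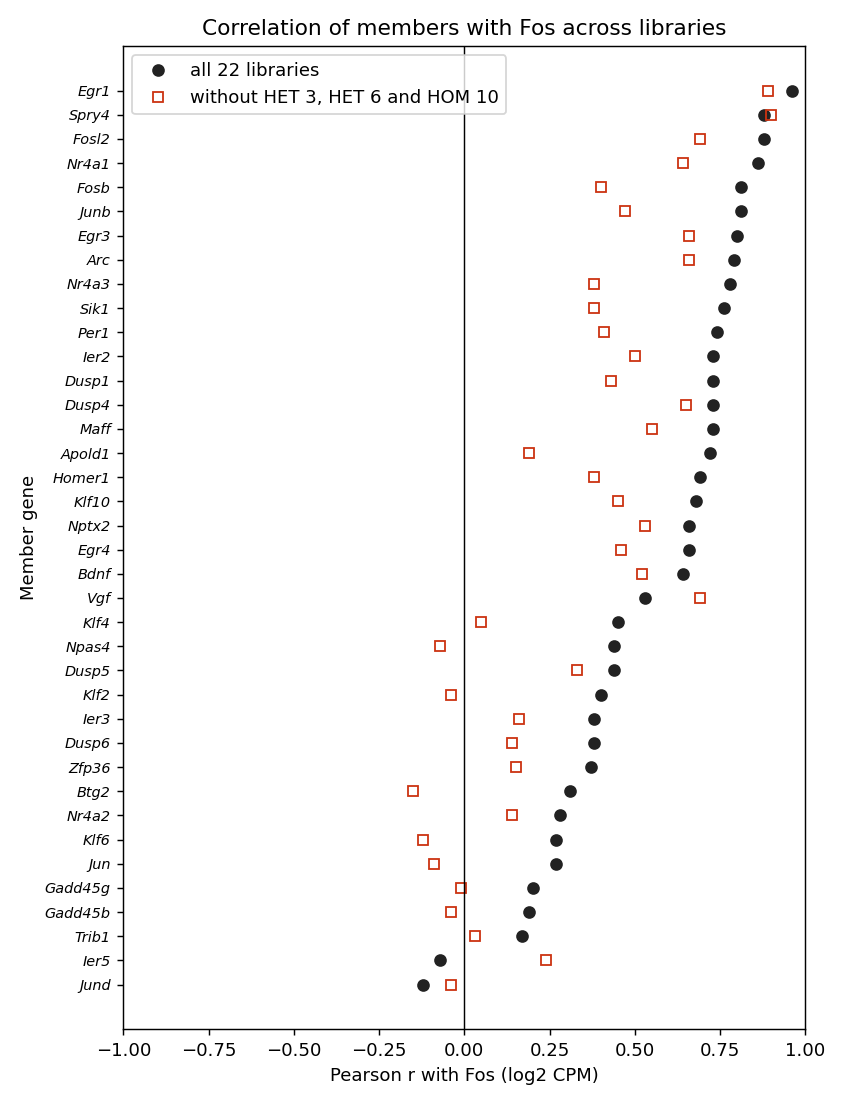
Pearson's r with Fos for the other 38 genes over all 22 libraries (filled) and without HET 3, HET 6 and HOM 10 (open squares). Egr1 and Spry4 keep 0.89 and 0.90 without those libraries, Apold1 goes from 0.72 to 0.19, and the median goes from 0.66 to 0.38.

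For some genes the relation rested on a few libraries. Without HET 3 and HET 6, which lay farthest from the median of Fos, the median r was 0.50. Egr1 and Spry4 then had r = 0.92 each, Fosl2 0.77, Nr4a1 0.72, Egr3 0.70, Arc 0.70 and Dusp4 0.70. Apold1 had r = 0.38 after 0.72, Sik1 0.48 after 0.76, Klf4 0.15 after 0.45 and Npas4 0.04 after 0.44, so these relations rested in large part on those 2 libraries. As deviations from the genotype means the median r was 0.60, and as deviations from the prefix means 0.46. In the latter, Vgf had r = -0.09 after 0.53 and Bdnf 0.23 after 0.64. The permutations shuffled all 22 libraries without regard to prefix or genotype. Within single groups the median r was 0.16 in WT, 0.85 in HET and 0.56 in HOM, and 0.20, 0.28 and 0.63 within prefixes 39992, 40411 and 40412. Among all 741 pairs of the 39 genes, r was positive in 661, with a median of 0.38. The share of positive pairs among other genes was not computed, so this count only describes the list.

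The genes outside the list that followed Fos most closely, taken as the 10 with the highest r among genes with a mean of at least 1 CPM, were Dnajb1, Ccdc117, Mis12, Zcchc2, Plod2, Jmjd6, Plekhf1, Tent5a, Bambi and Traf6, with r from 0.85 to 0.93. They were picked out of all genes for this value, so it is a description. Dnajb1, a heat shock co-chaperone of HSP70, stood first with r = 0.93. It lay at 72.7 CPM in HET 3, 73.9 in HET 6 and 71.8 in HOM 10, above every other library (at most 55.2 CPM, median 46.3 over all). Without those 3 libraries its r with Fos was 0.83.

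Title prefix went with the level of several of the genes. In a fit with genotype and prefix, a test chosen after the values were seen, the prefix term passed edgeR's quasi-likelihood test for 5 of the 39 genes (12.8%), against 1.93% of all genes (328 genes). These were Egr3, Bdnf, Vgf, Dusp4 and Spry4. Over fits that each left out 1 library, the call of Egr3 was lost without WT 1, WT 2, WT 3, WT 6, HET 1 or any of HOM 7 to HOM 10, and that of Bdnf without WT 3 or HOM 10. Between prefixes 40412 and 40411 with genotype in the fit, 8 of the 39 passed (20.5%), against 1.33% of all genes (226 genes), all of them higher in 40412, and 33 of the 39 were higher there (50.4% of all genes). Spry4 was higher by 0.44 on the log2 scale (SE 0.0534, adjusted p = 0.000233) and Vgf by 0.47 (SE 0.0636, adjusted p = 0.00068) in edgeR's test. Dusp4 was higher by 0.46 (SE 0.0717, adjusted p = 0.00209) and Bdnf, a neurotrophin, by 0.50 (SE 0.0963, adjusted p = 0.00953) in the same test. Egr3 (0.73), Egr1 (0.67), Maff (0.65) and Fos (0.75) had adjusted p-values of 0.0188, 0.0318, 0.0425 and 0.0437 in edgeR's test.

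**Figure D5:**
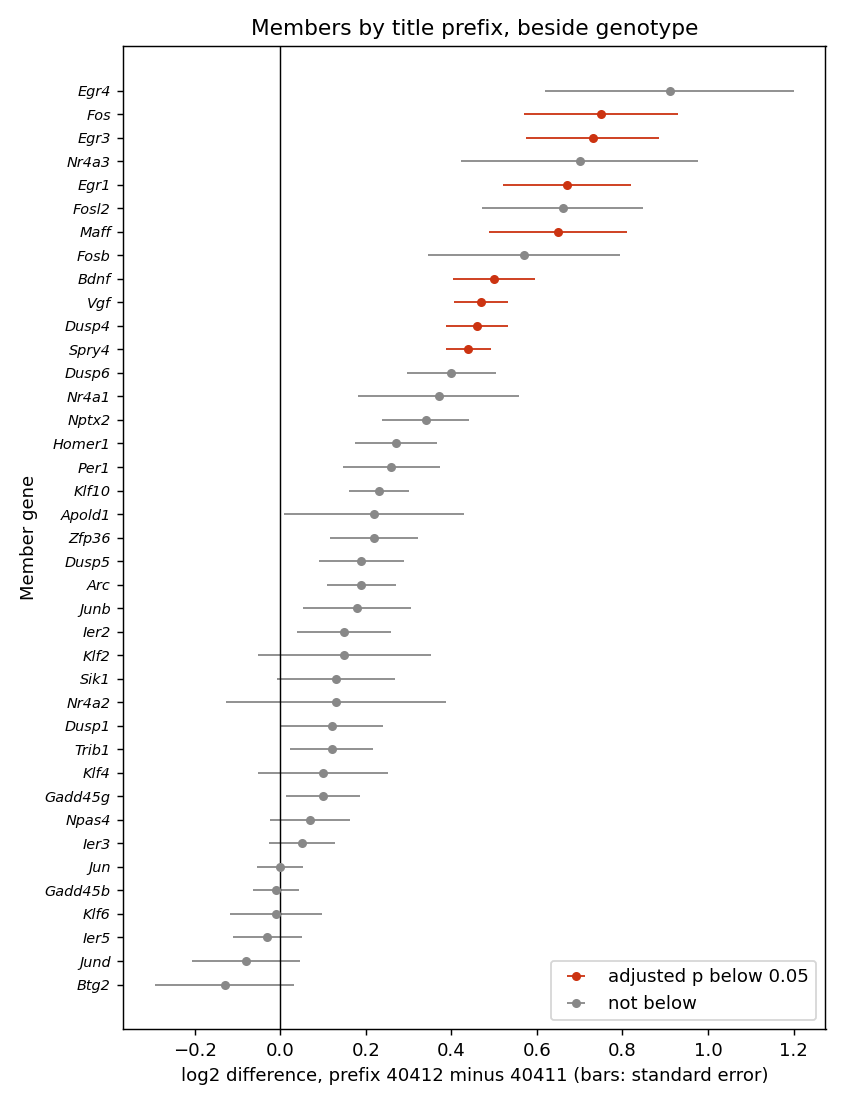
Log2 difference of each gene between prefix 40412 and prefix 40411 with genotype in the fit, with 1 standard error; red marks an adjusted p below 0.05. The 8 red genes lie between 0.44 and 0.75, and 33 of the 39 genes lie above 0.

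Prefixes 40411 and 40412 separated without overlap for Spry4, which lay between 19.3 and 21.9 CPM in the 6 libraries of 40411 and between 25.3 and 31.7 CPM in the 10 libraries of 40412. Vgf lay between 87.6 and 114 CPM in the former and between 125 and 166 CPM in the latter. Dusp4 lay between 5.5 and 6.33 CPM in 40411 and between 6.54 and 8.88 CPM in 40412. The share of all genes that separate in this way was not computed, so these ranges only describe the genes named. The 6 libraries of 39992 overlapped with 40412, at 22.1 to 26.6 CPM for Spry4 and 122 to 151 CPM for Vgf. The same order within each genotype follows from the separation of 40411 and 40412 and adds no further evidence. For Vgf the ranges were 87.6 to 90.8 against 125 to 141 CPM in WT and 104 to 110 against 138 to 166 in HOM. In HET, 1 library of 40411 at 114 CPM stood against 127 to 160 CPM. For Fos, the HOM libraries lay at 8.52 to 9.51 CPM in 40411, 12.4 to 16.6 in 39992 and 16.2 to 23.7 in 40412, with no overlap between 40411 and the other prefixes. The WT libraries differed less, at 10.7 to 11.9, 11.8 and 12.3 to 15.4 CPM.

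Libraries with under 1 CPM of Xist, the transcript that marks the inactive X chromosome, were 1 of 6 in 40411 and 5 of 10 in 40412. A fit with this split as well was chosen after the values were seen. In it, 6 of the 39 genes passed between the prefixes, of 177 genes in all, and the calls of Fos and Maff were lost.

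The calls of Spry4, Vgf, Dusp4 and Bdnf between 40412 and 40411 held in all 22 fits that each left out 1 library. That of Egr3 was lost without HET 1 and without HOM 10. Those of Egr1, Maff and Fos held in 14, 11 and 8 of the 22 fits. The call of Egr1 was lost without WT 2, WT 6, HET 1 or any of HOM 6 to HOM 10, and those of Maff and Fos were each lost without WT 1, WT 2, HET 1, HET 5, HET 6, HOM 2 or any of HOM 7 to HOM 10, among others. Without HET 1, 4 of the 39 genes passed among 172 of 17031 genes, and without HOM 10, 4 among 58 of 16972. Without HET 3, HET 6 and HOM 10 together, 5 of the 39 passed, namely Spry4, Vgf, Dusp4, Egr1 and Fos, of 40 genes in all, and Bdnf had an adjusted p of 0.0822 in edgeR's test. With the prefix in the fit, the log2 difference of HET from WT was 0.59 for Fos (SE 0.193), 0.44 for Egr1 (SE 0.163) and 0.39 for Junb (SE 0.137), and that of HOM from HET was -0.44 for Fos (SE 0.197) and -0.39 for Junb (SE 0.142), all with an adjusted p of 1 in edgeR's test.

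Xist was under 1 CPM in 9 libraries (0.0697 to 0.387 CPM) and lay between 416 and 640 CPM in the other 13. The low libraries were 1 of 6 in WT, 4 of 6 in HET and 4 of 10 in HOM, and HET 3, HET 6 and HOM 10 were among them. HET 3, HET 6 and HOM 10 had already been seen to be high across the list, and this split was chosen after the values were seen. Its counts are therefore a description. With genotype and prefix in the fit, 0 of the 39 genes passed edgeR's test for this split, against 0.23% of all genes (39 genes). At an unadjusted p below 0.05, 10 were higher in the low libraries (25.6%, against 5.97% of all genes). Of the 39, 32 were higher in them at any size (46.6% of all genes). Fosl2 was higher by 0.44 (SE 0.133, adjusted p = 0.189) and Fos by 0.38 (SE 0.136, adjusted p = 0.267) in edgeR's test. Fosl2 passed when HOM 3 was left out, among 78 of 16951 genes called for this split in that fit. With the Xist level as a covariate, the log2 difference of HET from WT was 0.52 for Fos (SE 0.232) and 0.43 for Egr1 (SE 0.204), both with an adjusted p of 0.998 in edgeR's test. A fit with prefix and this split together was also chosen after the values were seen. There the difference was 0.38 for Fos (SE 0.181) and 0.29 for Egr1 (SE 0.153), both with an adjusted p of 0.994 in the same test. At an unadjusted p below 0.05, 3 of the 39 genes were then higher in HET, namely Junb, Ier2 and Ier5. Of all 16974 genes, 322 were higher at such a p, and 570 had such a p in either direction.

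Genes around the same pathway were examined as 4 further lists. Of 22 other immediate early genes, 0 passed edgeR's test in any comparison, and in HET against WT 18 were higher, with a median log2 fold change of 0.07. Nfil3, a bZIP repressor, and Gem, a small GTPase, had the smallest p there, at 0.30 (SE 0.0912) and 0.34 (SE 0.133), both with an adjusted p of 1. Gem was lower in HOM than in HET by a log2 difference of -0.48 (SE 0.118, adjusted p = 0.131), and Rgs4, a brake on G protein signalling, by -0.25 (SE 0.0647, adjusted p = 0.170) in edgeR's test. Among 25 upstream kinases and transcription factors, such as the ERK cascade, CREB, SRF and MEF2, 0 passed, 14 were higher in HET and the median was 0.02, with Mef2d at 0.08 (SE 0.0300). Of 15 core clock genes 0 passed, and 7 were higher in HET than in WT. Cry1, a clock repressor, stood at 0.19 in HOM against WT (SE 0.0483, adjusted p = 0.286) and Per3 at 0.28 in HOM against HET (SE 0.0795, adjusted p = 0.264) in edgeR's test. Of 14 glucocorticoid responsive genes 0 passed and 5 were higher in HET than in WT, with Plin4 at -0.49 (SE 0.299) and Zbtb16 at -0.47 (SE 0.286). Sgk1, a kinase named after its values were seen, stood at 0.47 (SE 0.394, adjusted p of 1 in edgeR's test). It reached 257 CPM in HET 3, which was also the highest library for Nfkbia and Ddit4, likewise named after their values were seen. Others of the list peaked elsewhere, with Fkbp5, Tsc22d3, Zbtb16, Pdk4 and Cdkn1a highest in WT 6. Summed over the list, WT 6 was the highest of all libraries at 1110 CPM, against 946 CPM in HET 3.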

How the data were processed

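Libraries were made from polyA RNA with stranded KAPA kits, after TRIzol and column purification with DNase, per the labels' protocols; 2 kits are named and not assigned to libraries. The authors deposited 1 RSEM gene table per library, whose columns include expected counts and TPM, per the file headers. Bowtie2 2.2.0 and RSEM 1.2.12 are listed in the submitters' processing notes. Build, annotation and use of strand are not stated in the sources used here, so reads of overlapping genes may be shared. Expected counts deposited by the authors (14.41% to 16.23% of values not whole) were rounded. edgeR 4.0.16 in R 4.3.3 fitted all 22 libraries together (filterByExpr by genotype, TMM, robust quasi-likelihood) with Benjamini-Hochberg adjustment over 16974 genes. Standard errors came from the F statistic. The fit was tested on simulated data. Deposited TPM values were used for levels per length and in limma 3.58.1 on log2(TPM + 1); DESeq2 1.42.0 was another alternative, beside other scaling, filters, covariates and omitted libraries. Correlations used log2 CPM with a prior count of 1. Replicate numbers follow accession order. Statistics are given in full for Fos, Egr1, Junb, Arc, Npas4 and the 5 genes with the smallest p in each comparison, and otherwise as ranges and counts. The members and lists were chosen with earlier results of these data known.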

Additional observations from a re-analysis of the deposited data

Results flagged for a closer look

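In 13 of the 117 combinations of a gene and a genotype, 1 library lay farther from its neighbours than Dixon's limit for a group of that size; chance alone gives about 5 percent of groups, and the genes are not independent. HOM 10 accounted for 5 of these, standing above the other HOM libraries with Fos at 23.7 CPM, Egr1 at 59.7, Fosl2 at 23.2, Fosb at 4.48 and Apold1 at 5.82 CPM. HOM 3, the library with high Schwann cell, fibroblast and blood markers, stood above the others in Nr4a2 at 8.91 CPM, Klf6 at 44.0 and Btg2 at 12.5 CPM, and the part of those cells in these values was not tested. WT 6 stood above the other WT libraries in Fosl2 at 17.8 CPM, Egr3 at 3.41 and Maff at 2.54 CPM. Jun was highest in WT 1 at 51.1 CPM among WT libraries, and Dusp6, an ERK phosphatase, was lowest in HET 1 at 13.5 CPM among HET libraries.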

How the results depend on the processing

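No member was called in HET against WT or HOM against WT under any alternative run. Members above WT in HET numbered 24 without HET 3 and HET 6, also without HOM 10, and 33 to 39 when 1 library was left out (median log2 fold change 0.15 to 0.23). Members above WT in HOM numbered 16 with Xist as a covariate, 17 without HET 3, HET 6 and HOM 10, and 18 to 30 over single omissions. Members called in HOM against HET numbered 2 with DESeq2 and 0 to 1 over single omissions. Members higher in HOM than in HET numbered 13 with prefix as a covariate, 4 in prefixes 40411 and 40412, 13 in 40412 alone, 13 without the 3 libraries, 15 with prefix and Xist class, 15 without HET 3 and HET 6, and 5 to 11 over single omissions. The share of all genes that were higher lay from 48.7% to 54.8% in each of these fits. Over all genes, calls in HOM against WT numbered 28 with DESeq2, 8 in 40411 and 40412, 3 in 40412, and 12 to 19 over single omissions. In HOM against HET they numbered 76 with DESeq2, 11 with limma-trend, 10 with prefix, 4 in 40412, 11 without the 3 libraries, 11 with prefix and Xist class, 10 without HET 3 and HET 6, and 10 to 39 over single omissions (39 without HOM 10, 10 without HET 3). limma-trend moved the median of all genes in HET against WT to 0.042. The median r with Fos was 0.46 as deviations from prefix means and 0.38 without the 3 libraries. The prefix term called 133 genes without them (151 without HOM 7 to 576 without HOM 3 over single omissions, with 3 to 8 members), and 40412 against 40411 called 5 members and 40 genes (4 to 9 and 58 to 349 over single omissions, 58 without HOM 10 and 349 without HOM 3). The Xist split called 0 to 1 members and 30 to 148 genes over single omissions. The cause of these shifts was not tested. Fewer libraries entered the fits with omissions or with selected prefixes, while the DESeq2, limma-trend and covariate fits used all 22.

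Values changed sign as follows (log2). Not all of them were near 0 in the main fit: Apold1 stood there at 0.47 in HET against WT and at -0.28 in HOM against WT. HET against WT: Npas4 -0.060 without the 3 libraries or without HET 3 and HET 6, and -0.033 with prefix and Xist class. Klf4 stood at -0.050 with Xist, -0.009 in 40411 and 40412, -0.037 in 40412, -0.123 without the 3 libraries or HET 3 and HET 6, -0.098 with prefix and Xist class, and -0.049 to 0.128 over single omissions. Apold1 stood at -0.001 without HET 3 and HET 6 or the 3 libraries. HOM against WT with Xist gave Fos -0.027, Egr1 -0.057 and Dusp1 -0.035, and without the 3 libraries Egr1 -0.074 and Dusp1 -0.037. Dusp1 was -0.005 with prefix and Xist class, Junb 0.003 with prefix, and in 40412 Junb was 0.166, Arc 0.140 and Apold1 0.173. Single omissions gave Dusp1 -0.038 to 0.038, Egr1 -0.070 to 0.098 and Npas4 -0.094 to 0.013. HOM against HET gave Npas4 0.003 with prefix and Xist class and 0.008 without HET 3 and HET 6, and Ier5 -0.041 to 0.033 over single omissions. Egr4 rested on 9 to 51 counts per library, which limits its precision. No paired analysis was possible because the labels give no replicate numbers shared between genotypes, so no replicate block could be fitted.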
